A study of Mus musculus with 11 samples.

Results

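The 10 genes described here were chosen by name, as regulators of apoptosis of the BCL2 family and targets of the transcription factor p53, and made up 10 of the 55421 gene rows of the count table. They were the anti-apoptotic genes Bcl2, Bcl2l1 and Mcl1, the pore-forming effectors Bax and Bak1, the BH3-only genes Bbc3, Pmaip1 and Bcl2l11, the cell cycle inhibitor Cdkn1a and the p53 ligase Mdm2. All 10 had counts in every library and passed the filter on low counts in each comparison, in every library of both groups.

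RNA was sequenced from the hearts of 11 female C57BL/6J mice, 8 weeks old, with 1 library per heart. In 8 mice the left anterior descending coronary artery was ligated to cause a myocardial infarction (MI), and the infarct with its border zone was taken 3 days later. Of these, 4 mice received GI254023X (A10i, 100 mg/kg), an inhibitor of the metalloprotease ADAM10, and 4 received its solvent DMSO, both from osmotic minipumps under the skin. The other 3 mice were sham-operated, also received DMSO and gave healthy heart tissue. The comparisons ask how these genes differ in infarcted tissue with solvent or inhibitor from sham tissue, and whether the inhibitor alters their level after MI. No A10i-treated sham hearts were analysed here, and the inhibitor was given to the whole animal. The labels number the libraries without a batch, so a batch shared by the hearts of a group cannot be told apart from the group. The p-values set the difference between groups against the spread between the hearts within them.

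In the mitochondrial pathway of apoptosis, BAX and BAK open the outer mitochondrial membrane, which releases cytochrome c and activates caspases. BCL2, BCL-XL (the product of Bcl2l1) and MCL1 hold BAX and BAK in check, and the BH3-only proteins PUMA (Bbc3), NOXA (Pmaip1) and BIM (Bcl2l11) bind and block these guards or activate the effectors. p53 raises transcription of Bbc3, Pmaip1, Bax, Cdkn1a and Mdm2 after cell stress, CDKN1A (p21) stops the cell cycle, and MDM2 marks p53 for degradation in a feedback loop. Cardiomyocytes are long-lived and rarely divide, and they are known to depend on MCL1.

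The promoters of the p53 targets are shown for their sequence alone, and a part of p53 in the changes after MI was not tested. In windows from 250 bases before to 50 after each start site (RefSeq, GRCm38.p6), the p53 consensus decamer was searched, a motif of 10 bases that reads the same on both strands. It was found in 3 of 15 windows of the 9 genes with a window (Pmaip1 had none), in 10 of 26 windows of the other p53 targets listed further on, and in 8.36% of the 32851 windows searched. A pair of decamers with at most 13 bases between them was found in 1 window, that of Cdkn1a, in 0 windows of the other p53 targets and in 24 of the windows searched (0.0731%). The 250 bases before the start site are printed with the decamers in capitals, at chr17:29090729-29090978 (plus) for Cdkn1a, chr10:117710759-117711008 (minus) for Mdm2 and chr7:45466899-45467148 (minus) for Bax.
Cdkn1a: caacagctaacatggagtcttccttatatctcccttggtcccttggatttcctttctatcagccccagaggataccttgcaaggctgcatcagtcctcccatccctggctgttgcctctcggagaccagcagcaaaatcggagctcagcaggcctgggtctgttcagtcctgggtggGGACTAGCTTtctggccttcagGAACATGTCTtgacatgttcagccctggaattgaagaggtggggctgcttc
Mdm2: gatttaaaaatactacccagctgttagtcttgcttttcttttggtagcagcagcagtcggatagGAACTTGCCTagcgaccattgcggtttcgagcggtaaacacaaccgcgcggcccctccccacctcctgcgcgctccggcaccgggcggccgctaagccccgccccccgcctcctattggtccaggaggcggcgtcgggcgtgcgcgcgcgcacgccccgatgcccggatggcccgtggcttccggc
Bax: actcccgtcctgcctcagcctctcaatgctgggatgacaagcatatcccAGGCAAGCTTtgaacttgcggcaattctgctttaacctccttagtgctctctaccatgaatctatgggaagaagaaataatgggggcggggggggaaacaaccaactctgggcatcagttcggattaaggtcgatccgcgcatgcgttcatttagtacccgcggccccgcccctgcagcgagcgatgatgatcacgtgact
In Cdkn1a the decamers began 73 and 51 bases before the start site, 12 bases apart, and the window of its other start site held none. The decamer of Mdm2 began 186 and that of Bax 201 bases before the start. No decamer was found in the windows of Bcl2, Bcl2l1, Mcl1, Bak1, Bbc3 and Bcl2l11, which says only that these letters were not in those windows. Decamers with a mismatch, and sites farther from the start or within introns, the first intron of Mdm2 included, were not searched for any gene.

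In GRCm38, the genes lie at chr1:106538178-106714274 (Bcl2, minus strand), chr2:152780668-152831728 (Bcl2l1, minus), chr3:95658788-95663176 (Mcl1, plus), chr7:45461697-45466898 (Bax, minus) and chr17:27019810-27029009 (Bak1, minus). Bbc3 lies at chr7:16308393-16318205 (plus), Pmaip1 at chr18:66458533-66465565 (plus), Bcl2l11 at chr2:128126038-128162547 (plus), Cdkn1a at chr17:29090976-29100727 (plus) and Mdm2 at chr10:117688875-117710758 (minus). All 10 are protein-coding, and their counts cover the exons. Exons of Bak1 overlap 2 gene models of Ggnbp1 on the other strand, which had 17 to 78 and 100 to 363 counts per library. Since the strand setting of the counting is not given in the sources used here, the share of Bak1 counts that came from that strand is uncertain. The antisense or overlapping models at Cdkn1a, Bcl2 and Bax had at most 11 counts in a library.

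Total counts were 25538009 to 29511768 per library in Sham, 22651265 to 29004048 in DMSO and 21702623 to 25695213 in A10i hearts. CPM are counts scaled to the library total times its TMM factor. Such factors assume that most genes do not differ between libraries. They were 0.9043 to 0.9077 in Sham, 0.9579 to 1.125 in DMSO and 0.9978 to 1.109 in A10i hearts. All values in CPM below carry this assumption. All 10 cardiomyocyte markers were detected in every library. Their summed level was 99600 to 102000 CPM in Sham, 46500 to 69000 in DMSO and 57800 to 79100 in A10i hearts. In the same order, 10 neutrophil markers summed to 1.76 to 3.03, 85.6 to 170, and 15.4 to 58.0 CPM, with Ly6g and Cxcr1 at 0 in Sham and Cxcr1 at 0 in A10i hearts. Macrophage markers (10 genes) summed to 359 to 393, 606 to 1020 and 775 to 1450 CPM, and fibroblast markers (8 genes) to 1150 to 1240, 1910 to 6390 and 4820 to 8920 CPM. Endothelial markers (8 genes) summed to 915 to 928, 722 to 867 and 869 to 979 CPM, proliferation markers (8 genes) to 50.9 to 74.0, 43.2 to 208 and 111 to 268 CPM, and lymphocyte markers (7 genes) to at most 2.77 CPM. The cardiomyocyte, neutrophil, macrophage and fibroblast sums did not overlap between Sham and either MI group, and their part in the results was not tested. Such sums are weighted towards the most abundant genes. At an adjusted p under 0.01 by edgeR, 5 of 10 cardiomyocyte markers were lower than Sham in DMSO and 3 in A10i hearts, with 0 higher. Of the 8 fibroblast markers, 4 were higher in DMSO and 7 in A10i hearts, with 0 lower. Fewer cells of a type and less RNA per cell cannot be told apart in tissue RNA.

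Of the 10 genes, 5 rose in infarcted DMSO hearts against Sham and 0 fell, where rose and fell mean an adjusted p under 0.01 (edgeR's quasi-likelihood test, Benjamini-Hochberg over all genes tested). Cdkn1a rose 4.8-fold and Pmaip1 3.0-fold, the effectors Bak1 and Bax rose 1.67-fold and 1.53-fold, and the anti-apoptotic Bcl2 rose 1.39-fold. Mcl1 and Bcl2l11 differed from Sham by under 0.1 on the log2 scale, and Bbc3 and Mdm2 had lower means after MI without passing the test. In the A10i hearts, 2 of the 10 genes, Cdkn1a and Bak1, rose against Sham and 0 fell. Between A10i and DMSO hearts 0 of the 10 passed the test, with Cdkn1a at 1765 ± 394 against 2688 ± 727 normalized counts (mean ± SD, n = 4 each). Normalized counts are counts brought to a common library size with TMM factors, which assume that most genes do not differ between libraries.

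For reading these counts, 12.9% of the 17117 genes tested rose and 9.6% fell in DMSO hearts against Sham at an adjusted p under 0.01, and 13.7% of 16971 rose and 9.11% fell in A10i hearts. The median log2 fold change of the 10 genes was 0.38 in DMSO and 0.12 in A10i hearts against Sham, where the medians of all genes tested were 0.00 and -0.01. The highest and lowest libraries of the groups did not overlap in 8 of the 10 genes between DMSO and Sham and in 6 between A10i and Sham, but this was so in 48.7% and 48.3% of all genes tested. Scaling by library size alone shifted all genes upwards, by a median of 0.21 in DMSO and 0.18 in A10i hearts, and moved the calls over all genes from 2215 higher and 1643 lower to 3330 and 708 in DMSO, and from 2333 and 1546 to 3436 and 577 in A10i hearts.

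**Figure D1:**
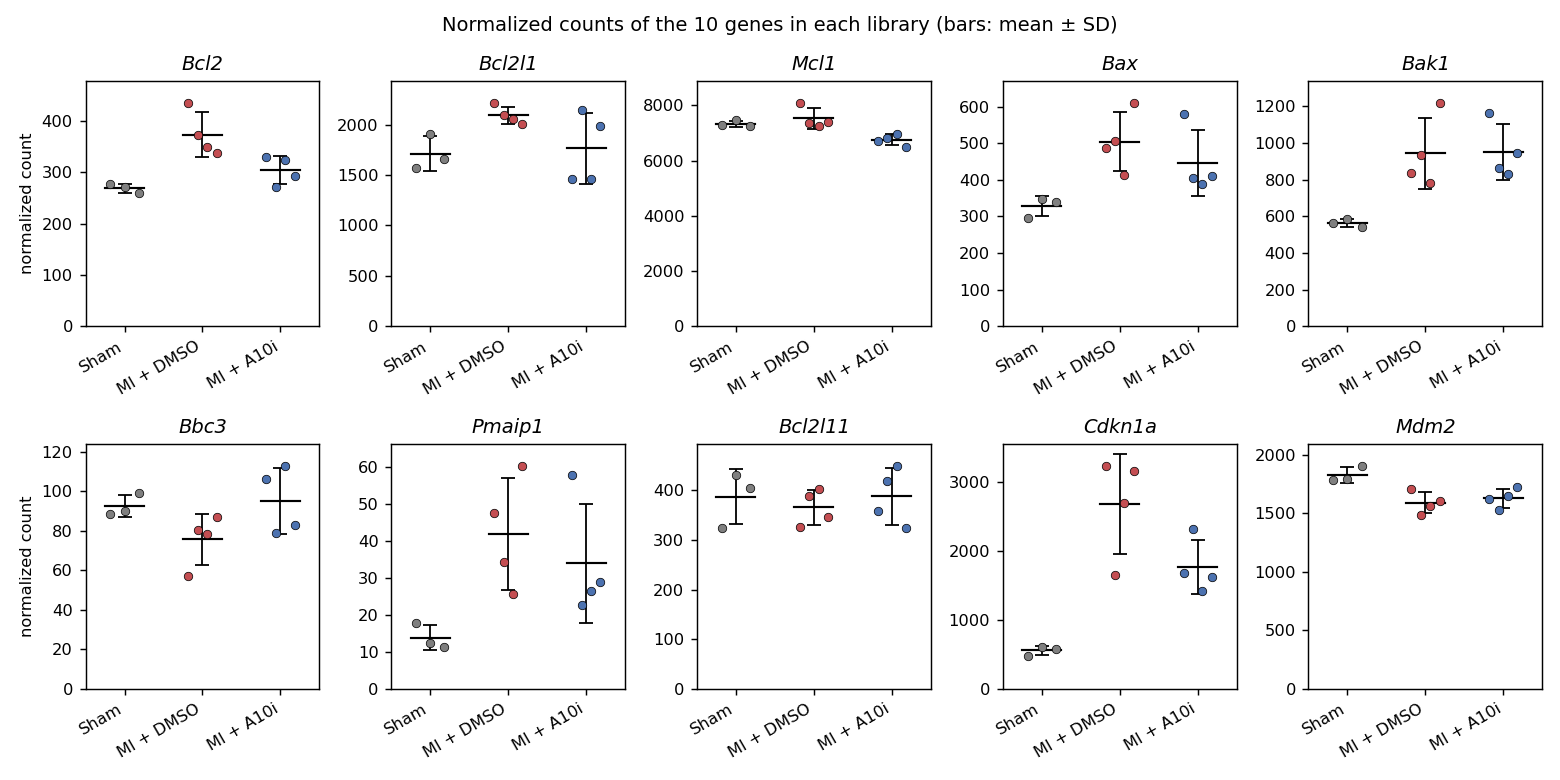
Normalized counts (y axis, linear from 0) of the 10 genes in each of 11 libraries, by group (x axis), with points for libraries and bars for the mean ± SD. Cdkn1a lay between 478 and 614 in Sham and between 1417 and 3237 in all infarcted hearts, whereas Mcl1 and Bcl2l11 showed no such separation.

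Cdkn1a, which encodes the cyclin-dependent kinase inhibitor p21, had the largest change of the 10 genes. Its normalized counts were 478, 614 and 583 in the Sham libraries S1, S2 and S3. They were 3237, 1657, 2698 and 3160 in the DMSO libraries A105, A127, A128 and A129. They were 1689, 2329, 1417 and 1625 in the A10i libraries A116, A117, A119 and A120. All 8 infarcted hearts were above all 3 Sham hearts, and the DMSO library A127 lay below the A10i libraries A116 and A117. Cdkn1a rose by 2.26 ± 0.23 on the log2 scale (SE, 95% interval 1.74 to 2.79, adjusted p = 0.000271) in DMSO hearts and by 1.66 ± 0.17 (1.27 to 2.05, adjusted p = 0.000319) in A10i hearts against Sham. Both calls were kept when any 1 library was left out, with log2 fold changes of 2.15 to 2.44 and 1.5 to 1.76.

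Mdm2, a target of p53 that restrains it, was not among the genes that rose. Sham libraries held 1785, 1792 and 1906 normalized counts, DMSO libraries 1707, 1490, 1567 and 1611, and A10i libraries 1624, 1529, 1646 and 1725. Every infarcted heart was thus below every Sham heart after TMM scaling. The log2 fold change was -0.20 ± 0.07 (SE, 95% interval -0.37 to -0.04, adjusted p = 0.0549) in DMSO and -0.16 ± 0.06 (-0.30 to -0.02, adjusted p = 0.0663) in A10i hearts, which did not pass the threshold. With library size alone as the scale it was 0.00 and 0.03, so its direction rests on the scaling.

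The ratio of Mdm2 to Cdkn1a within a library does not depend on the scaling. Per exon length, its log2 value was 1.38, 1.03 and 1.19 in Sham libraries S1 to S3, -1.44, -0.67, -1.30 and -1.49 in the DMSO libraries A105, A127, A128 and A129, and -0.57, -1.12, -0.30 and -0.43 in the A10i libraries A116, A117, A119 and A120. Per exon length, Mdm2 was therefore above Cdkn1a in all 3 Sham hearts and below it in all 8 infarcted hearts. Without division by length, Mdm2 still had more raw counts than Cdkn1a in the A10i libraries A119 (1559 and 1342) and A120 (1500 and 1413). In the other infarcted hearts it had fewer.

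**Figure D2:**
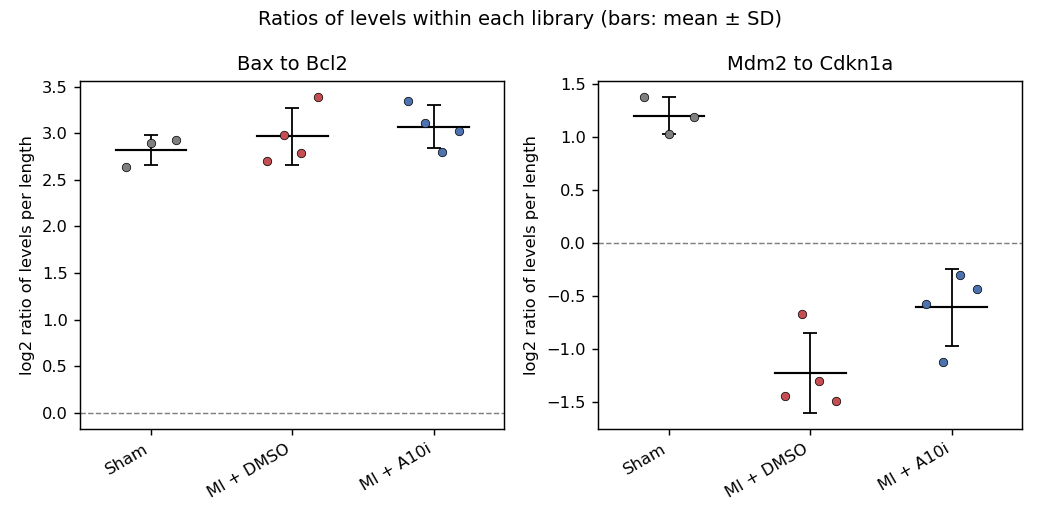
Log2 ratio of levels per exon length (y axis) of Bax to Bcl2 and of Mdm2 to Cdkn1a in each library, by group (x axis), with bars for the mean ± SD and a dashed line at equal levels. Mdm2 to Cdkn1a changed sign between Sham and infarcted hearts, whereas Bax to Bcl2 ran from 2.64 to 3.39 over all 11 libraries with overlapping groups.

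The effectors Bax and Bak1, either of which can permeabilize mitochondria, were higher after MI. Bak1 had 564, 583 and 540.3 normalized counts in Sham, 838, 934, 782 and 1216 in DMSO (A105, A127, A128, A129) and 1164, 861, 831 and 946 in A10i libraries (A116, A117, A119, A120). Its lowest infarcted heart was above its highest Sham heart. Bak1 rose by 0.74 ± 0.15 on the log2 scale (SE, adjusted p = 0.00359) in DMSO and by 0.76 ± 0.11 (adjusted p = 0.000936) in A10i hearts against Sham. Without S1, S2 or S3 the adjusted p in DMSO hearts was 0.0188, 0.0168 and 0.0211, above the threshold of 0.01, while the call in A10i hearts was kept without any 1 library.

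Bax had 297, 348 and 340.2 normalized counts in Sham, 487, 506, 414 and 609 in DMSO and 579, 405, 387 and 411 in A10i libraries, in the same order. Again no infarcted heart overlapped Sham. Bax rose by 0.61 ± 0.14 (SE, log2, adjusted p = 0.00611) in DMSO hearts, and was 0.44 ± 0.14 higher in A10i hearts (adjusted p = 0.0338), which did not pass. The call in DMSO hearts was lost without S1, S2, S3, A105 or A127, with adjusted p of 0.0354, 0.0218, 0.0242, 0.0108 and 0.015, and log2 fold changes of 0.54 to 0.65. In A10i hearts the log2 fold change of Bax was 0.29 without A116, against 0.44 with it.

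The libraries A129 (DMSO) and A116 (A10i) had the highest Bax, Bak1 and Pmaip1 of their groups. They also had the highest summed neutrophil (170 and 58.0 CPM), fibroblast (6390 and 8920 CPM), macrophage (1020 and 1450 CPM) and proliferation markers (208 and 268 CPM) of their groups. Their cardiomyocyte markers (46500 and 57800 CPM) were the lowest of their groups. The other hearts did not all follow this order. The DMSO library A105 had the lowest fibroblast (1910 CPM), macrophage (606 CPM) and proliferation sums (43.2 CPM) of its group. Yet its Bax (487) and Pmaip1 (47.4 normalized counts) were above those of A128 (414 and 25.5). The part of these markers in the levels of Bax, Bak1 and Pmaip1 was not tested.

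Among the BH3-only genes, Pmaip1 was higher after MI and Bbc3 and Bcl2l11 were not. Pmaip1, which encodes the MCL1-binding protein NOXA, had the lowest counts of the 10 genes. Its normalized counts were 17.7, 12.4 and 11.3 in Sham, 47.4, 34.3, 25.5 and 60.2 in DMSO and 57.8, 22.8, 26.4 and 28.7 in A10i libraries, from 11 to 60 raw counts, so counting error is a larger part of its spread than for the other genes. All infarcted hearts were above Sham, and A129 and A116 were highest. Pmaip1 rose by 1.58 ± 0.36 (SE, log2, adjusted p = 0.00709) in DMSO hearts and was 1.30 ± 0.39 higher in A10i hearts (adjusted p = 0.0229), short of the threshold. The call in DMSO hearts was kept without A128 (adjusted p = 0.00299) and lost without S1, S2, S3, A105, A127 or A129 (0.0181, 0.0347, 0.0363, 0.0154, 0.0114 and 0.0114) and by limma-voom (0.0154). In A10i hearts the log2 fold change was 0.91 without A116.

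Bbc3, which encodes PUMA, had 88.6, 89.9 and 99.0 normalized counts in Sham, 57.2, 80.6, 78.2 and 87.3 in DMSO and 106, 79.1, 113 and 82.8 in A10i libraries. All DMSO hearts were below all Sham hearts, while A10i hearts lay on both sides of them. The log2 fold change was -0.29 (95% interval -0.70 to 0.13, adjusted p = 0.243) in DMSO and 0.05 (-0.33 to 0.43, adjusted p = 0.85) in A10i hearts. The upper ends of these intervals correspond to 1.09-fold and 1.35-fold of Sham. Bcl2l11, which encodes BIM, had 325, 431 and 405 normalized counts in Sham, 327, 387, 401 and 346 in DMSO and 358, 418, 449 and 324 in A10i libraries. The 3 groups overlapped, with log2 fold changes of -0.09 (-0.36 to 0.19, adjusted p = 0.606) and 0.00 (-0.29 to 0.30, adjusted p = 0.985).

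Of the anti-apoptotic genes, Bcl2 rose in DMSO hearts. It had 277, 271 and 259 normalized counts in Sham, 435, 373, 349 and 338 in DMSO and 329.5, 272, 324 and 293 in A10i libraries. All DMSO hearts were above Sham and above A10i hearts, and the A10i library A117 fell within the Sham range. Bcl2 rose by 0.47 ± 0.11 (SE, log2, adjusted p = 0.00846) in DMSO hearts and was 0.18 ± 0.10 higher in A10i hearts (adjusted p = 0.164). The call was kept without A128 or A129 and lost without S1, S2, S3, A105 or A127 (adjusted p of 0.0319, 0.0373, 0.045, 0.0149 and 0.0179) and by limma-voom (0.0113).

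Bcl2l1, which encodes BCL-XL, had 1565, 1908 and 1663 normalized counts in Sham, 2211, 2094, 2052 and 2009 in DMSO and 1460, 2144, 1462 and 1988 in A10i libraries. DMSO hearts did not overlap Sham, while the A10i hearts fell into a low pair, A116 and A119, and a high pair, A117 and A120. Its log2 fold change was 0.28 ± 0.08 (SE, adjusted p = 0.0239) in DMSO and 0.05 ± 0.15 (adjusted p = 0.833) in A10i hearts. With library size alone as the scale the first was 0.49 (adjusted p = 0.00204).

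Mcl1, whose short-lived protein is needed for survival of cardiomyocytes, had the steadiest level of the 10 genes in Sham. Its normalized counts were 7302, 7462 and 7251 in Sham, 8073, 7370, 7262 and 7405 in DMSO and 6705, 6830, 6964 and 6498 in A10i libraries. DMSO and Sham hearts overlapped, and all 4 A10i hearts were below the hearts of both other groups. The log2 fold change was 0.03 (95% interval -0.16 to 0.23, adjusted p = 0.778) in DMSO and -0.12 (-0.27 to 0.04, adjusted p = 0.21) in A10i hearts, and the latter was 0.07 with library size alone as the scale.

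The 10 genes were then compared between infarcted hearts with A10i and with DMSO. At an adjusted p under 0.01, 0 of the 10 differed by edgeR, by DESeq2, by limma-voom and in a fit of all 11 libraries, and 0 of 16792 genes tested by edgeR did so (0.0% higher and 0.0% lower). Over all genes, DESeq2 called 106 higher and 125 lower with A10i, and the fit of all 11 libraries 2 and 9. At an unadjusted p under 0.05, Cdkn1a and Bcl2 were lower with A10i, 2 of 10 genes, where 6.73% of all genes were. The groups did not overlap in 2 of 10 genes, Bcl2 and Mcl1, both lower with A10i, where 8.12% of all genes did not overlap in either direction.

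The log2 difference of A10i from DMSO hearts was -0.60 ± 0.22 for Cdkn1a (SE, 95% interval -1.10 to -0.11, adjusted p = 0.267), and all 4 A10i hearts were below the DMSO hearts other than A127. Leaving out 1 library gave -0.78 to -0.50, with adjusted p of 0.0738 without A127 to 0.52 without A120. It was -0.29 ± 0.11 for Bcl2 (-0.53 to -0.05, adjusted p = 0.277), -0.24 for Bcl2l1 (-0.53 to 0.05, adjusted p = 0.449) and -0.16 for Mcl1 (-0.34 to 0.03, adjusted p = 0.463), so all 3 anti-apoptotic genes had lower means with A10i and none passed the test. For the effectors it was 0.01 for Bak1 (-0.32 to 0.35) and -0.18 for Bax (-0.51 to 0.16). For the BH3-only genes it was 0.33 for Bbc3 (-0.09 to 0.75), -0.29 for Pmaip1 (-1.08 to 0.50) and 0.09 for Bcl2l11 (-0.18 to 0.36), and for Mdm2 0.04 (-0.13 to 0.20). Both comparisons with Sham share the same 3 Sham hearts, so the 5 calls in DMSO and 2 in A10i hearts are not a test of the difference between the treatments.

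**Figure D3:**
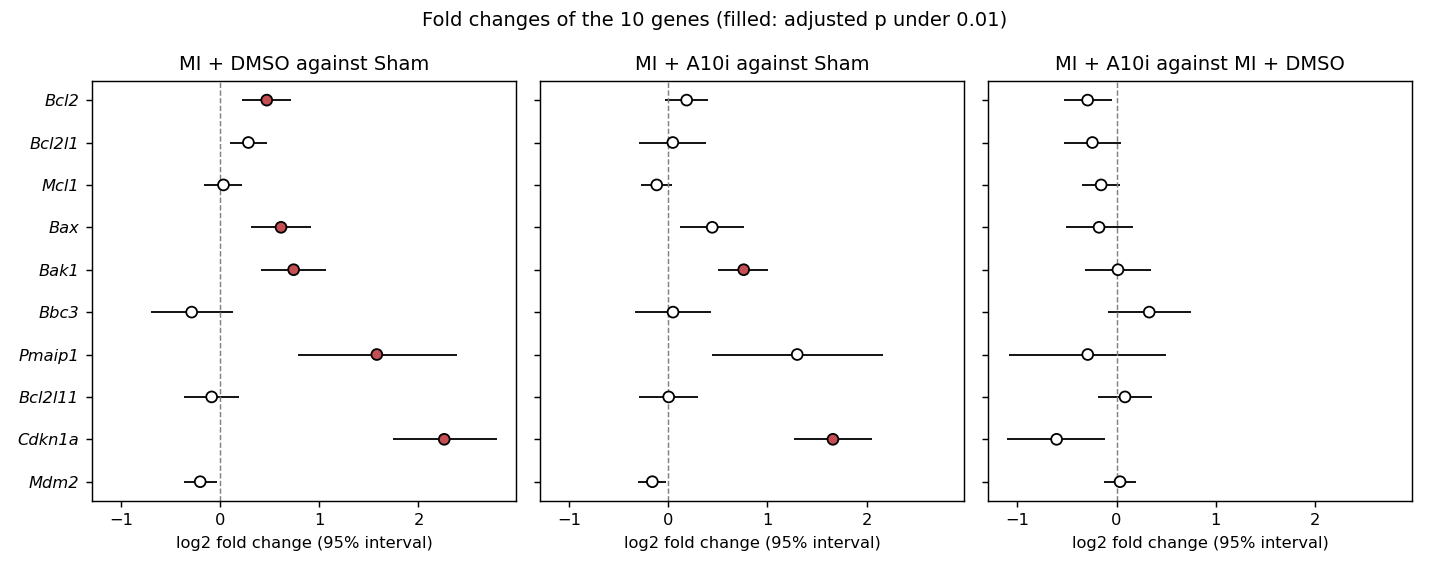
Log2 fold change (x axis) with its 95% interval for each gene (y axis) in the 3 comparisons, filled where the adjusted p was under 0.01. Filled points are Bcl2, Bax, Bak1, Pmaip1 and Cdkn1a in DMSO hearts and Bak1 and Cdkn1a in A10i hearts against Sham, with none between A10i and DMSO.

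Levels of different genes were compared as CPM per kilobase of exon, with CPM scaled by TMM factors. Mcl1 was highest in all groups, at 83.9 ± 1.26 in Sham (SD, n = 3), 86.1 ± 4.21 in DMSO and 77.2 ± 2.26 in A10i hearts (n = 4 each), and did not overlap the next gene. Pmaip1 was lowest, at 0.198 ± 0.049, 0.599 ± 0.217 and 0.485 ± 0.23. In Sham, the order after Mcl1 was Bcl2l1 (14.6), Mdm2 (14.1), Bak1 (9.14), Bax (8.15), Cdkn1a (6.14), Bcl2l11 (1.88), Bbc3 (1.70), Bcl2 (1.15) and Pmaip1, with overlapping libraries only between Bcl2l1 and Mdm2 and between Bcl2l11 and Bbc3.

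In DMSO hearts Cdkn1a was next to Mcl1 at 29.6 ± 8.00, followed by Bcl2l1 (17.8), Bak1 (15.3), Bax (12.5), Mdm2 (12.3), Bcl2l11 (1.78), Bcl2 (1.59) and Bbc3 (1.40). Neighbours from Cdkn1a to Mdm2 and from Bcl2l11 to Bbc3 overlapped. In A10i hearts Cdkn1a was again next to Mcl1 at 19.4 ± 4.33, followed by Bak1 (15.4), Bcl2l1 (15.0), Mdm2 (12.5), Bax, Bcl2l11 (1.89), Bbc3 (1.75) and Bcl2 (1.30), with overlap from Cdkn1a to Bax and between Bcl2l11 and Bbc3. Cdkn1a thus went from the 6th to the 2nd level of the 10 genes. The log2 ratio of Bax to Bcl2 per exon length was 2.82 ± 0.16 in Sham (SD, n = 3), 2.96 ± 0.31 in DMSO and 3.07 ± 0.23 in A10i hearts (n = 4 each), and the groups overlapped.

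**Figure D4:**
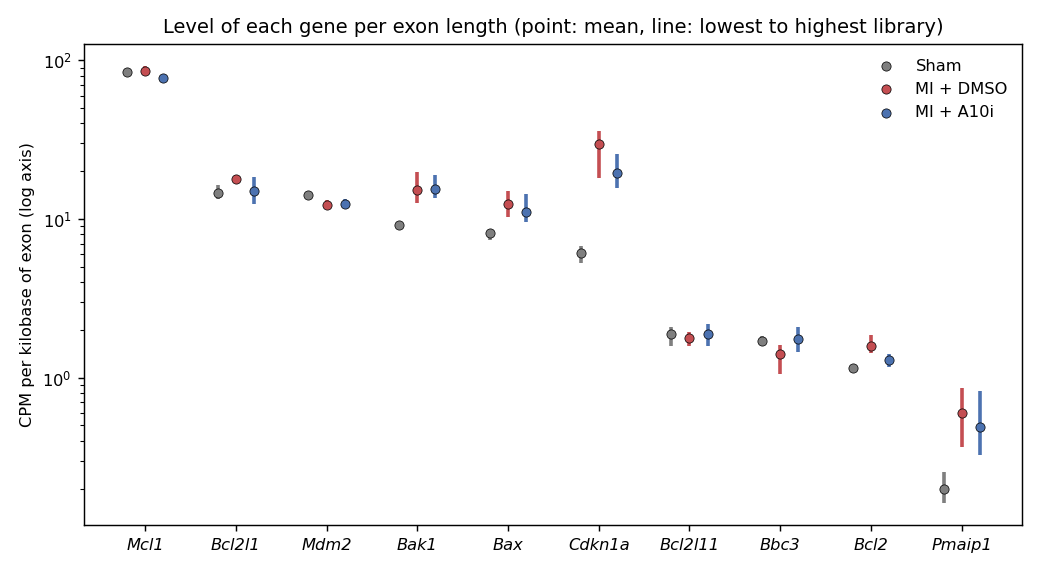
CPM per kilobase of exon (y axis, log scale) of the 10 genes, ordered by their Sham level (x axis), with the mean as a point and the lowest to highest library as a line for each group. Cdkn1a moved from 6.14 in Sham to 29.6 in DMSO and 19.4 in A10i hearts, while Mcl1 stayed on top.

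Over all 11 libraries, Cdkn1a and Pmaip1 varied most, with SDs of 0.99 and 0.75 of log2 CPM. Among 14766 genes, those whose centred log2 CPM differed least from Cdkn1a were Igf2bp2, Sbno2 and Fut2, with root mean square differences of 0.20, 0.21 and 0.22. The nearest of the other 9 genes was Pmaip1 (0.59) and the farthest Bbc3 (1.08). Nearest to Pmaip1 were Slfn2 (0.16), Gm6682 (0.17) and Rassf5 (0.17), with Bak1 the nearest (0.40) and Bcl2l11 the farthest (0.81) of the 10 genes. These are descriptions over 11 libraries of 3 groups, which share the difference between sham and infarcted tissue.

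The rest of the BCL2 family was read from a list of 17 other genes, of which 14 passed the filter against Sham. In DMSO hearts 4 rose and 2 fell (median log2 fold change 0.21), and in A10i hearts 4 rose and 1 fell (median 0.19). Beside this and the lists below stand the shares of all genes tested, 12.9% rising and 9.6% falling in DMSO and 13.7% and 9.11% in A10i hearts. The anti-apoptotic Bcl2a1a and Bcl2a1b, known from blood cells, rose by 3.66 ± 0.65 and 3.68 ± 0.65 (SE, log2) in DMSO and by 2.70 ± 0.65 and 3.74 ± 0.63 in A10i hearts, from means of 1.67 and 4.29 normalized counts in Sham. Both passed the filter through the infarcted hearts, near-identical copies make the split of their reads uncertain, and their calls rest on single libraries. In DMSO hearts Bcl2a1a was lost without S2, and Bcl2a1b without S1 or S3 and by limma-voom (adjusted p = 0.0131). In A10i hearts Bcl2a1b was lost without S1 or S3, and Bcl2a1a was kept in 1 of 7 refits, since it was lost without any 1 Sham library and no longer passed the filter without A116, A119 or A120. Neutrophil and macrophage marker sums were also above Sham in both MI groups, and their part was not tested. In A10i and DMSO hearts, Bcl2a1b had 60.4 ± 36.5 and 58.4 ± 29.5 normalized counts (SD, n = 4 each). The means of Bcl2a1a (11.8 ± 4.48 and 23.3 ± 8.82) and of its relative Bcl2a1d (16.9 ± 5.64 and 24.1 ± 8.16) were lower with A10i. No copy passed the test between these groups.

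Bid, which links death receptors to mitochondria, rose by 1.74 ± 0.27 (SE, log2, adjusted p = 0.00114) in DMSO and by 1.5 ± 0.34 (adjusted p = 0.00631) in A10i hearts. Bok, a relative of Bax, rose by 1.58 ± 0.25 (adjusted p = 0.00131) and 1.52 ± 0.21 (adjusted p = 0.000678). Leaving out any 1 library kept the calls of Bid in DMSO and of Bok in A10i hearts. The call of Bok in DMSO hearts was lost without S2, and that of Bid in A10i hearts was not kept in every refit. The BH3-only gene Hrk fell by 2.25 ± 0.35 (adjusted p = 0.00116) in DMSO and by 1.54 ± 0.37 (adjusted p = 0.00812) in A10i hearts, the latter lost without any 1 library but A117, with library size alone (0.0138) and by limma-voom (0.0101), and it passed the filter through the Sham hearts. Bmf, another BH3-only gene, had 219 ± 8.03 normalized counts in Sham (SD, n = 3), 132 ± 12.4 in DMSO and 225 ± 47.4 in A10i hearts (n = 4 each). It fell by 0.73 ± 0.13 in DMSO hearts (SE, log2, adjusted p = 0.00187), a call lost without S1 or S2 and with library size alone as the scale (adjusted p = 0.0209), and was 0.77 ± 0.16 higher in A10i than in DMSO hearts (adjusted p = 0.096), which did not pass.

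Among 28 other p53 targets, all tested, 4 rose and 4 fell in DMSO hearts (median 0.11) and 6 rose and 5 fell in A10i hearts (median 0.16). Targets thus went both ways, where of all genes tested 12.9% rose and 9.6% fell in DMSO and 13.7% and 9.11% in A10i hearts. The anti-proliferative Btg2 rose by 1.66 ± 0.14 (SE, log2, adjusted p = 0.000105) in DMSO hearts, at 2178 ± 402 normalized counts (SD, n = 4) against 686 ± 34.1 in Sham (n = 3). With A10i its mean was 1181 ± 280 (n = 4), a rise against Sham of 0.79 ± 0.17 (SE, log2, adjusted p = 0.00637). The difference of A10i from DMSO hearts was -0.88 ± 0.19 (adjusted p = 0.0986). Gadd45a, a stress-induced gene of growth arrest, fell by 1.57 ± 0.09 in DMSO (adjusted p = 1.3e-05) and by 1.56 ± 0.10 in A10i hearts (adjusted p = 5.2e-05), from 538 ± 32.9 in Sham to 181 ± 2.58 and 182 ± 19.3 normalized counts. The call of Btg2 in DMSO hearts and both calls of Gadd45a were kept when any 1 library was left out.

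Also lower in DMSO hearts were Sesn1, which restrains mTOR signalling, by 0.85 ± 0.16, Ccng1, by 0.64 ± 0.11, and Rrm2b, by 0.521 ± 0.105 (adjusted p = 0.00397). The death receptor gene Tnfrsf10b rose by 0.85 ± 0.19 and Perp by 0.58 ± 0.12 (SE, log2). Tnfrsf10b also rose in A10i hearts (0.90 ± 0.22, adjusted p = 0.00849). Calls of Sesn1, Ccng1, Rrm2b and Perp in DMSO hearts were lost without any 1 of the 3 Sham libraries, and that of Tnfrsf10b in DMSO hearts without any library but A105. The call of Rrm2b in DMSO hearts was also lost without A127 and with library size alone as the scale. In A10i hearts Gtse1, Psrc1 and Ckap2, which act in dividing cells, rose by 2.69 ± 0.39, 2.27 ± 0.41 and 2.08 ± 0.41, while Sesn1 fell by 0.70 ± 0.12 and Rrm2b, a ribonucleotide reductase subunit, by 0.54 ± 0.07. Leaving out S1 or S3 lost Psrc1, any Sham library lost Ckap2, and S2 lost Sesn1. In DMSO hearts Gtse1, Psrc1 and Ckap2 were higher by 2.1 ± 0.60, 1.13 ± 0.55 and 1.54 ± 0.535 without passing (adjusted p of 0.0222, 0.13 and 0.0467). Proliferation markers moved with these genes, with 7 of 8 markers called higher in A10i hearts against Sham and 0 in DMSO hearts. At an unadjusted p under 0.05, 6 were higher and 1 lower in DMSO hearts, and 0 differed between A10i and DMSO hearts. The part of these markers was not tested.

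In the list of p53, its relatives and regulators (12 genes, 11 tested against Sham), 1 rose and 2 fell in DMSO hearts (median -0.14) and 0 rose and 3 fell in A10i hearts (median 0.13). Trp53, the gene of p53, rose by 0.68 ± 0.12 (SE, log2, adjusted p = 0.00259) in DMSO hearts, from 374 ± 20.9 to 599 ± 89.4 normalized counts (SD), and was 0.52 ± 0.13 higher in A10i hearts (adjusted p = 0.0101). Atm, the kinase that activates p53 at DNA breaks, fell by 0.57 ± 0.12 and 0.55 ± 0.10, and Cop1, a ligase of p53, by 0.45 ± 0.09 and 0.40 ± 0.07, in DMSO and A10i hearts. Mdm4, a relative of Mdm2 that binds p53, fell by 0.32 ± 0.07 in A10i hearts. In DMSO hearts the calls of Trp53, Atm and Cop1 were lost without any 1 Sham library, and that of Atm also without A127. In A10i hearts, Atm was lost without S1 or S3, Cop1 without S3, and Mdm4 without any 1 Sham library or A120. With library size alone as the scale, Atm and Cop1 were not called in DMSO (adjusted p of 0.075 and 0.0363) or A10i hearts (0.0471 and 0.0309), nor Mdm4 in A10i hearts (0.211), all still lower than Sham.

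Of 21 genes of the caspase pathway, all tested, 3 rose and 0 fell in DMSO hearts (median -0.06) and 4 rose and 0 fell in A10i hearts (median -0.03). Apaf1, the scaffold of the apoptosome, rose by 0.69 ± 0.16 and 0.71 ± 0.16, and Casp8, the initiator caspase of death receptors, by 0.92 ± 0.19 and 1.04 ± 0.19 (SE, log2) in DMSO and A10i hearts. The caspase inhibitor gene Birc3 rose by 0.61 ± 0.09 in DMSO and by 0.43 ± 0.10 in A10i hearts (adjusted p = 0.007). Its call in DMSO hearts was kept without any 1 library, while that in A10i hearts was not kept in every refit. Calls of Apaf1 and Casp8 were lost without any 1 Sham library, those in DMSO hearts also without A127, and that of Apaf1 in A10i hearts without A120.

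Of the 5 other cyclin-dependent kinase inhibitor genes, 0 rose and 1 fell in both comparisons with Sham, with median log2 fold changes of 0.04 in DMSO and 0.22 in A10i hearts. Cdkn1c, which encodes the imprinted inhibitor p57, fell by 1.44 ± 0.15 in DMSO (SE, log2, adjusted p = 0.000177) and by 1.15 ± 0.13 in A10i hearts (adjusted p = 0.000301), from 790 ± 1.57 normalized counts in Sham (SD, n = 3) to 292 ± 60.7 and 355 ± 68.9 (n = 4 each). It kept both calls without any 1 library.

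Between A10i and DMSO hearts, 0 genes of these 5 lists passed the test by edgeR, while DESeq2's Wald test called Bmf higher (adjusted p = 0.0034) and Btg2 lower (adjusted p = 0.0012) with A10i. The smallest p-values of each list belonged to Bmf and Bcl2a1a (-0.96 ± 0.38, adjusted p = 0.297), to Btg2 and Psrc1 (1.14 ± 0.45, adjusted p = 0.3), to Ppm1d (0.26 ± 0.11, adjusted p = 0.337) and Chek2 (0.49 ± 0.24, adjusted p = 0.392), to Fadd (-0.40 ± 0.14, adjusted p = 0.247) and Casp6 (0.30 ± 0.11, adjusted p = 0.267), and to Cdkn2c (0.40 ± 0.15, adjusted p = 0.287) and Cdkn1c (0.28 ± 0.18, adjusted p = 0.526). At an unadjusted p under 0.05 were 2 of 13 other BCL2 family genes, 3 of 28 p53 targets, 1 of 10 p53 regulators, 3 of 21 caspase pathway genes and 1 of 5 kinase inhibitors, where 13.8% of all genes tested were.

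**Figure D5:**
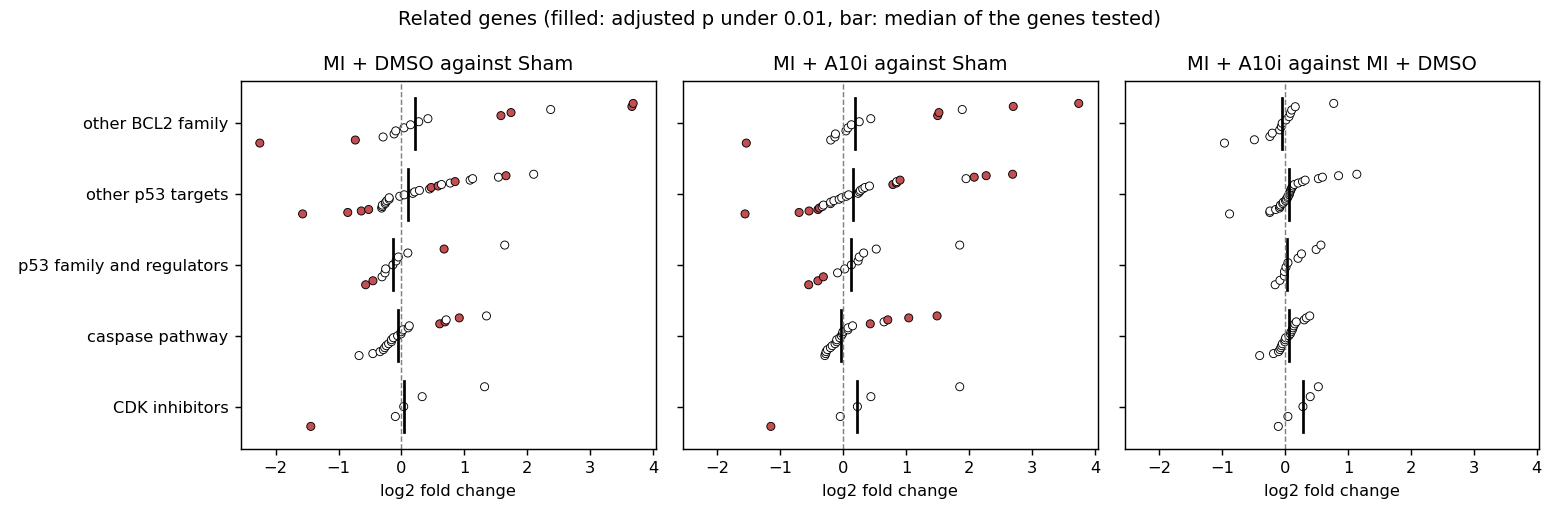
Log2 fold change (x axis) of each tested gene of the 5 related lists (y axis) in the 3 comparisons, filled where the adjusted p was under 0.01, with a bar at the list's median. Filled points lie on both sides of 0 among p53 targets and other BCL2 family genes against Sham, and there are none between A10i and DMSO.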

How the data were processed

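Poly(A) RNA of 11 mouse hearts was made into strand-specific libraries. The authors aligned read pairs to mm10 with GSNAP and counted them on Ensembl 98 genes with featureCounts 2.0.1, and deposited raw counts per gene without normalization. The strand setting is not given in the sources used here. The 92 spike-in rows (at most 0.000194% of counts) were left out. Groups came from the labels. GENCODE M21 named 55154 of 55421 genes. Replicates differed by more than counting error in all 15 pairs.

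Each comparison used its groups alone in R 4.3.3 with edgeR 4.0.16 (filterByExpr, TMM and the robust quasi-likelihood test), and p-values, all two-sided, were adjusted over all genes tested (Benjamini-Hochberg) and called under 0.01. Every adjusted p is from this test unless another is named. "Rose" and "fell" mean past that threshold. Normalized counts are counts over the TMM-scaled library size times its mean, and CPM use the same library size. The scripts were tested on simulated data. Alternatives were DESeq2 1.42.0, limma-voom (3.58.1), other scalings and filters, a joint fit, a threshold of 0.05 and leaving out each library. The 10 genes, the related lists and the markers were chosen with earlier results of these data known. From each list, up to 3 higher and 3 lower genes with the largest change past the threshold were named, or, where none passed, the 2 with the smallest p. Trp53, Btg2, Bmf, Bcl2a1b, Bcl2a1d, Bid, Bok, Birc3, Tnfrsf10b, Rrm2b, Gtse1, Psrc1 and Ckap2 are also given in comparisons outside that rule. These were chosen after their values were seen, and not all of their refits are given. Promoter windows came from RefSeq, and chromosome 18, which carries Pmaip1, was left out. The values of 1 gene of the caspase list are not reported here.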

Additional observations from a re-analysis of the deposited data

Results flagged for a closer look

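Among the 34 groups of 4 hearts that were examined, for the 10 genes and 7 marker sums, 1 stood out. The Bax level of the A10i heart A116, at 578.9 normalized counts, lay far above the other 3 A10i hearts (387 to 411), and its gap to the nearest, 0.88 of the range of the group, was above Dixon's 95% critical value for 4 samples. Chance flags about 1 in 20 groups.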

How the results depend on the processing

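Of the 10 genes, the number called in DMSO hearts against Sham (5) fell to 3 by limma-voom and ranged from 1 to 5 when 1 library was left out: 1 (Cdkn1a) without S1, S2 or S3, 2 (Bak1 and Cdkn1a) without A105 or A127, 4 without A129 and 5 without A128. In A10i hearts against Sham (2), it was 4 with an adjusted p under 0.05 and 4 with no filter on low counts, which added Bax and Pmaip1, and 2 without any 1 library. Between A10i and DMSO hearts it was 0 in every setting, where the calls over all genes went from 0 by edgeR to 106 higher and 125 lower by DESeq2 and 18 and 25 with no filter. Some directions of uncalled genes turned. With library size alone as the scale, these were Bcl2l11 (0.12) and Mdm2 (0.00385) in DMSO hearts, Mcl1 (0.07) and Mdm2 (0.0266) in A10i hearts against Sham, and Bak1 between A10i and DMSO hearts (-0.00343). Upper-quartile factors turned Bcl2l11 in A10i hearts (-0.0103). Leaving out 1 library gave -0.0155 to 0.0524 for Mcl1 in DMSO hearts, -0.0609 to 0.128 for Bcl2l1, -0.0415 to 0.131 for Bbc3 and -0.109 to 0.0868 for Bcl2l11 in A10i hearts, and -0.094 to 0.161 for Bak1 between A10i and DMSO hearts. No gene named from the 5 related lists by the naming rule turned in any of its refits. The causes were not tested. Other calls of list genes against Sham were also lost, for Ckap2 in A10i hearts with no filter (0.0371) and in the joint fit (0.0171), for Bcl2a1a in A10i hearts in the joint fit (0.0102), and for Apaf1 in DMSO hearts by limma-voom (0.0123) and in the joint fit of DMSO (0.0105) and A10i hearts (0.0138), all as adjusted p. Over the lists, leaving out 1 library gave 3 to 7 calls for the other BCL2 family (6), 2 to 14 for p53 targets (8), 0 to 4 for p53 regulators (3), 1 to 6 for the caspase pathway (3) and 1 for kinase inhibitors (1) in DMSO hearts, and 1 to 4 (5), 5 to 13 (11), 0 to 5 (3), 0 to 5 (4) and 1 to 2 (1) in A10i hearts against Sham. Pmaip1, with 11 to 60 counts per library, was the gene most limited by depth. No paired analysis was possible because the groups share no replicate numbers.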
